A study of Mus musculus with 6 samples.

Results

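Genes of heparan sulfate were read in 6 tumours grown from 4T1 cells, a mouse mammary carcinoma line, with 1 array per tumour. The list of 42 genes covers precursor supply, the linker, chain polymerisation, sulfation, the proteoglycan core proteins and breakdown. A gene counted as measured when a probe set named it and no other gene: 37 of the 42 had such a probe set (72 probe sets in all, of 22690 on the array). Xylt1, Ndst1, Hs3st6, Sulf1 and Hpse had none and are not analysed here. Of the 37, 34 passed a filter that left out the dimmest 30% of probe sets (a mean log2 value of 6.09 or less), and these 34 were among 9248 genes tested. Ndst3, Ndst4 and Hs3st3b1 did not pass it.

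The 3 tumours titled Control and the 3 titled Bptf KD grew for 21 days from 10000 cells each, injected into the fourth mammary fat pad. The hosts were NSG mice, written Ifrg2r -/- in the labels. NSG mice lack T, B and natural killer cells. In the Bptf KD cells the gene Bptf, the largest subunit of the chromatin remodeller NURF, was knocked down by short hairpin RNAs carried by a retrovirus. The sources used here do not say what the control cells carried, how many hairpins or clones were used or how old the mice were. The tumours are biological replicates per the labels.

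Heparan sulfate is a sugar chain built on core proteins of the cell surface and the matrix. A short linker is laid on a serine of the core, the exostosin enzymes extend it with alternating sugars, and sulfotransferases then add sulfate in patches. The pattern of sulfate decides which growth factors, chemokines and enzymes the chain can hold. Natural cytotoxicity receptors of natural killer cells also bind heparan sulfate, although the hosts of these tumours lack such cells.

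Of the 34 genes tested, 1 rose in Bptf KD tumours, the sulfotransferase Hs3st1, and 1 fell, the core protein Gpc3. The upstream sequences of these genes are shown because they are the pair that passed the test. Each is the 250 bases before the transcription start that RefSeq gives on GRCm38.p6, on the minus strand, at chr5:39644632-39644881 for Hs3st1 and chrX:52613975-52614224 for Gpc3. Capitals mark matches, on either strand, to the GC box (GGGCGG), the CCAAT box (CCAAT), the TATA box (TATAAA) and the E-box (CACGTG).
Hs3st1: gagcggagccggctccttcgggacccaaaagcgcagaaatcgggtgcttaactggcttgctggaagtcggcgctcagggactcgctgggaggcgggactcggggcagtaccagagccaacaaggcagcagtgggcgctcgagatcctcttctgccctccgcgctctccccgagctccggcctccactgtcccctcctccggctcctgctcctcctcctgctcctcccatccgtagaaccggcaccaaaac
Gpc3: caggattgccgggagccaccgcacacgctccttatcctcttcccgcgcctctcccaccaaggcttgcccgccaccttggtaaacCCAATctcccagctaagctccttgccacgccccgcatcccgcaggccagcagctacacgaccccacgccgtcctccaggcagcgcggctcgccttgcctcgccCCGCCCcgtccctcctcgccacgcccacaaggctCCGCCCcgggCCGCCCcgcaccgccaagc
Gpc3 held 3 GC boxes, which began 63, 29 and 19 bases before the start, and 1 CCAAT box at 166 bases, and none of these overlapped. Hs3st1 held no match to any of the 4 motifs. Of 32851 windows of this length in the table, 32.7% held a GC box, 33.8% a CCAAT box, 12.4% a TATA box and 6.02% an E-box. The 29 tested genes of the list with an entry had 36 windows, and 22 of those held a GC box, 12 a CCAAT box, 2 a TATA box and 4 an E-box. Both windows were rich in G and C, at 66.0% for Hs3st1 and 71.6% for Gpc3, beside a median of 52.4% over all windows. They held 19 and 25 CpG dinucleotides, beside a median of 6. The arrays do not measure promoters, and these letters are a description only.

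Bptf itself was read to check the labels. Its brightest probe set gave 10.69, 9.77 and 10.59 in controls 1, 2 and 3. In Bptf KD tumours 1, 2 and 3 it gave 9.60, 9.56 and 9.99. The log2 difference was -0.63 (SE 0.27, limma adjusted p = 0.371), and -0.92 without control 2 (limma adjusted p = 0.0305). Removing control 2, the lowest control, had to enlarge the difference, so that fit cannot check the labels. Without each other tumour in turn the difference was -0.77 to -0.46 (limma adjusted p = 0.528 to 0.730). The control labelled 2 lay below every Bptf KD tumour on the other 3 probe sets of Bptf, so it is called the tumour labelled control 2 here, and each direction below counts it as a control. It also stood apart in other genes: its correlation with controls 1 and 3 was 0.934 and 0.939 across genes, against 0.986 between those. The 8 markers of mammary carcinoma epithelium all passed the filter, with list means of 10.5 to 11.3 in the control group and 11.4 to 11.5 in the knockdown group. Markers of fat cells and fibroblasts moved with the groups. All 10 tested adipocyte markers and all 13 fibroblast markers had negative differences, and their list means did not overlap (9.92 to 10.7 against 7.13 to 8.0 for fat, and 11.4 to 11.6 against 10.2 to 10.5 for fibroblasts). In tissue of this kind, fewer cells of a type and less RNA per cell cannot be told apart.

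Across all genes, 75 of 9248 (0.811%) passed a Benjamini-Hochberg adjusted p of 0.05 in limma, 14 higher (0.151%) and 61 lower (0.660%) in Bptf KD tumours. The heparan sulfate list had 2 of 34, or 5.88%, 1 in each direction. At an unadjusted p under 0.05 it had 8 of 34 (23.5%), 5 higher and 3 lower, against 13.5% of all genes (7.66% higher and 5.82% lower). The groups did not overlap, with Bptf KD higher, in 6 of its genes (17.6%, against 11.8% of all genes) and, with Bptf KD lower, in 3 (8.82%, against 8.17%). The median difference was 0.09 on the list and 0.06 over all genes, and 23 of 34 differences were positive, beside 5511 of 9248. The list median thus lay close to that of all genes. Levels of different genes come from different probes and are not compared.

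**Figure D1:**
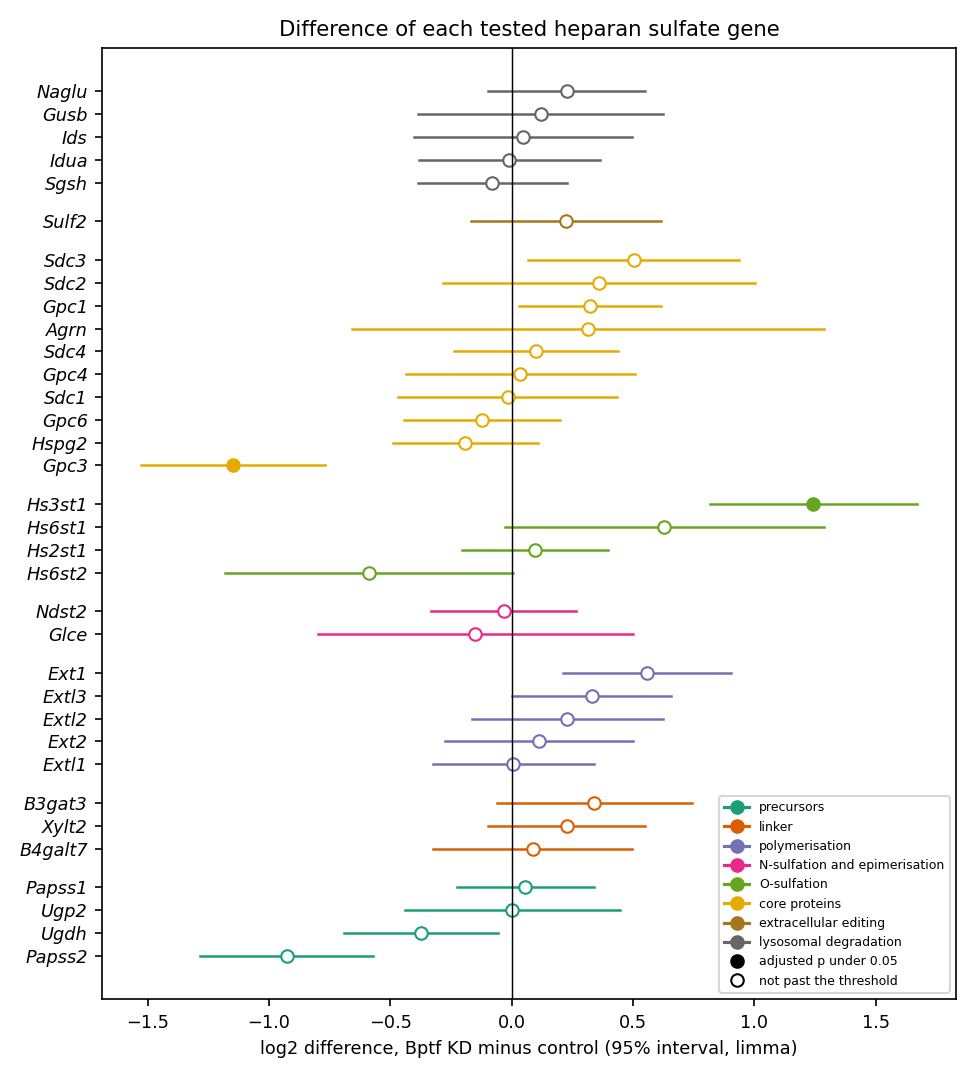
Log2 difference between Bptf KD and control tumours for each of the 34 heparan sulfate genes tested, coloured by role, with the 95% interval from limma (3 tumours in each group). Filled points passed an adjusted p of 0.05: Hs3st1 at 1.24 and Gpc3 at -1.15.

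The chain is built from activated sugars and activated sulfate, and of the 4 genes of that supply none passed the test. Papss2, which with its paralog Papss1 makes the universal sulfate donor PAPS, came nearest. Its level was 7.06, 7.17 and 7.43 in controls 1, 2 and 3 and 6.40, 6.11 and 6.37 in Bptf KD tumours 1, 2 and 3. Every Bptf KD tumour lay below every control. The difference was -0.93 (SE 0.15, 95% interval -1.28 to -0.57), with a limma adjusted p of 0.0526, just beyond the threshold. The exact permutation test (two-sided) gave p = 0.1, the smallest that 3 against 3 allows. Papss2 passed in limma in 4 of the 14 alternatives that kept it. These included each array centred on its median (adjusted p = 0.0484) and the trend and robust settings (0.0443). It also passed with array weights, which favoured control 3 (0.0026), and without the tumour labelled control 2 (0.0280). It did not pass without Bptf KD tumours 1, 2 and 3 in turn (limma adjusted p = 0.182, 0.211 and 0.209) or without control 3 (0.166). Those fits called 0 to 10 of all genes. In Bptf KD tumours Papss2 lay near the dim level of 6.09. The other 3 Papss2 probe sets were dim and differed in sign: -0.32 with groups apart, 0.07 and -0.23. Papss1, the other synthase of PAPS, differed by 0.06 (interval -0.23 to 0.34).

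Ugdh, which oxidises UDP-glucose to the glucuronate donor of the chain, gave 12.26, 11.97 and 12.20 in controls and 11.87, 11.80 and 11.64 in Bptf KD tumours. The groups did not overlap, and the gap between the lowest control and the highest Bptf KD tumour was narrow. The difference of -0.37 (interval -0.69 to -0.06) did not pass (limma adjusted p = 0.308). Ugp2, which makes UDP-glucose, differed by 0.0033 (interval -0.44 to 0.44), and the sign varied among its 5 probe sets, from -0.037 to 0.10.

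The linker enzymes set the first sugars on the core protein, and 3 of the 4 were tested. None passed, and the 3 differences were positive, as were 59.6% of those over all genes. B3gat3, which adds the glucuronic acid that completes the linker, gave 8.51, 8.98 and 8.66 in controls and 8.92, 8.98 and 9.27 in Bptf KD tumours. The groups overlapped, since the tumour labelled control 2 equalled Bptf KD 2. Its difference was 0.34 (interval -0.06 to 0.74; limma adjusted p = 0.454). Xylt2, a xylosyltransferase that starts the linker, gave 7.13, 7.36 and 7.01 in controls and 7.29, 7.43 and 7.46 in Bptf KD tumours, and here too that control reached into the range of the other group. The difference was 0.23 (adjusted p = 0.548 by limma). B4galt7, a galactosyltransferase of the linker, differed by 0.09 and lay near the dim level in all 6 tumours (6.28 to 6.79).

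All 5 genes of chain polymerisation had positive differences, with a median of 0.23, and none passed. Over all genes 59.6% of differences were positive. Ext1, which with Ext2 forms the polymerase of the chain, read 10.86, 10.40 and 10.64 in controls and 11.15, 11.21 and 11.21 in Bptf KD tumours. All Bptf KD tumours lay above all controls and close to one another. The difference was 0.56 (SE 0.15, interval 0.21 to 0.90), a 1.47-fold higher mean, with a limma adjusted p of 0.173 and an exact two-sided permutation p of 0.1. Without the tumour labelled control 2, the lowest for Ext1, it was 0.44 (limma adjusted p = 0.0781). Ext2, its partner in the polymerase, gave 0.11 (interval -0.27 to 0.50), and its sign turned without that control.

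Extl3, an exostosin-like enzyme that begins the heparan sulfate chain on the linker, gave 9.67, 9.41 and 9.60 in controls and 9.71, 9.94 and 10.02 in Bptf KD tumours. The groups were separated by the small step between control 1 and Bptf KD 1. The difference was 0.33 (interval 0.0011 to 0.66; limma adjusted p = 0.369). Extl2 differed by 0.23 and Extl1 by 0.0067, both with intervals that held 0.

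**Figure D2:**
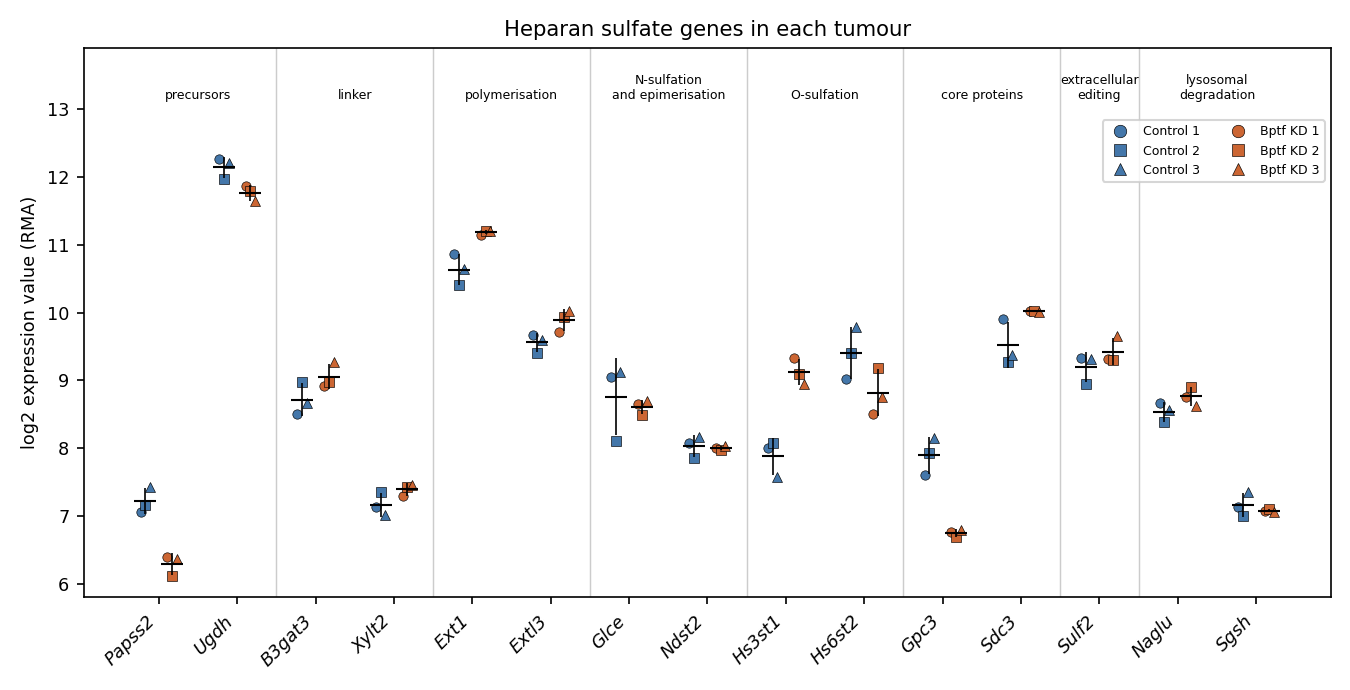
Log2 expression value (RMA) in each tumour for up to 2 genes of each role with the smallest p: points are single tumours (3 control, 3 Bptf KD), horizontal bars are group means and vertical bars 1 SD. The groups are apart for Papss2, Ugdh, Ext1, Extl3, Hs3st1, Gpc3 and Sdc3 and overlap for the other 8 genes.

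N-deacetylase/N-sulfotransferases open the modification of the chain by replacing acetyl groups with sulfate, and Glce then turns glucuronic into iduronic acid. Of these genes 2 were tested, and neither passed. Ndst2 gave 8.08, 7.86 and 8.17 in controls and 8.0, 7.98 and 8.03 in Bptf KD tumours, a difference of -0.03 (interval -0.33 to 0.26). Glce gave 9.05, 8.11 and 9.12 in controls and 8.65, 8.49 and 8.69 in Bptf KD tumours. The tumour labelled control 2 was the lowest of the 6 and the other controls were the highest, so the difference of -0.15 (interval -0.80 to 0.50; limma adjusted p = 0.863) joined unlike controls. Without that tumour it was -0.48. Ndst3 ranged from 4.18 to 4.98 and Ndst4 from 5.32 to 5.66, dim values whose share of background is not known.

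The O-sulfotransferases add sulfate at set positions of the sugars and include Hs3st1, the gene of the list with the largest difference. Hs3st1 makes the 3-O-sulfated sugar on which antithrombin binds heparan sulfate. It read 8.0, 8.08 and 7.57 in controls 1, 2 and 3 and 9.33, 9.10 and 8.95 in Bptf KD tumours 1, 2 and 3. The lowest Bptf KD tumour lay well above the highest control. Group means were 7.88 ± 0.27 and 9.13 ± 0.19 (SD, n = 3 each), so Hs3st1 was 2.37-fold higher in Bptf KD tumours, a difference of 1.24 (SE 0.18, interval 0.82 to 1.67; limma adjusted p = 0.0434, rank 50 of 9248 by p; exact two-sided permutation p = 0.1).

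The adjusted p of Hs3st1 lay close to the threshold. It was 0.0672 without control 1, 0.114 without control 3 and 0.176, 0.182 and 0.146 without Bptf KD tumours 1, 2 and 3, each from limma, so the call ended in each of these cases, and it was 0.0176 without the tumour labelled control 2. Over all genes limma called 73 without control 1 and 10 without control 3. Without Bptf KD tumours 1, 2 and 3 it called 2, 6 and 0, so few calls of any gene were left there. The difference of Hs3st1 lay between 1.09 and 1.34 over these fits. Hs3st1 had a single probe set, so no second reading of it was at hand. The array's other enzymes of 3-O-sulfation were dim: Hs3st3b1 ranged from 5.69 to 5.94, with a difference of 0.0067, and Hs3st3a1 from 4.04 to 4.23.

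The 6-O-sulfotransferases Hs6st1 and Hs6st2 had differences of opposite sign, and neither passed. Hs6st1 read 8.38, 7.32 and 8.19 in controls and 8.43, 8.70 and 8.65 in Bptf KD tumours, a difference of 0.63 (interval -0.03 to 1.29; limma adjusted p = 0.398). The groups were apart, but control 1 came close to Bptf KD 1, and without the tumour labelled control 2, the lowest, the difference was 0.31. Hs6st2 read 9.02, 9.40 and 9.79 in controls and 8.51, 9.19 and 8.75 in Bptf KD tumours. The groups overlapped there, with a difference of -0.59 (interval -1.18 to 0.0076; limma adjusted p = 0.378), and its other probe set above the dim level gave -0.27. Whether these 2 enzymes differed from each other in response was not tested. Hs2st1, which sulfates iduronic acid, gave 0.10 (interval -0.20 to 0.40), with 0.087 to 0.097 on its 3 probe sets.

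Core proteins carry the chains, and of the 10 tested Gpc3 alone passed. Gpc3 is a glypican, held at the cell surface by a lipid anchor and known as a regulator of Hedgehog and Wnt signals. It gave 7.61, 7.93 and 8.15 in controls 1, 2 and 3 and 6.76, 6.69 and 6.80 in Bptf KD tumours 1, 2 and 3. The Bptf KD tumours lay close together and all below the lowest control. Group means were 7.90 ± 0.27 and 6.75 ± 0.06 (SD, n = 3 each), which makes the control level 2.21 times the Bptf KD level, a difference of -1.15 (SE 0.16, interval -1.53 to -0.77; limma adjusted p = 0.0434, rank 40 of 9248; exact two-sided permutation p = 0.1).

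The call of Gpc3 held without control 1 (limma adjusted p = 0.0259) and without the tumour labelled control 2 (0.0238). It ended without control 3 (0.116) and without Bptf KD tumours 1, 2 and 3 (0.176, 0.182 and 0.167), with differences of -1.29 to -1.02 over the 6 fits. It also ended with the mean of the skeletal muscle markers as a covariate, with a difference of -1.18 (limma adjusted p = 0.0711). The fits without control 3 or without a Bptf KD tumour called 0 to 10 of all genes. Gpc3 had 1 probe set. Fibroblast and adipocyte markers moved the same way as Gpc3 and Papss2. Limma called 5 of 13 fibroblast and 6 of 10 adipocyte markers lower, beside 0.660% of all genes. Their median differences were -0.91 and -2.75. All tested markers of skeletal muscle (15), mast cells (6) and keratinocytes (4) also had negative differences, with 0 called. Their medians were -1.27, -0.85 and -0.81. The part of fibroblasts and adipocytes in the lower Gpc3 and Papss2 was not tested, nor was that of mast cells or keratinocytes.

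The other glypicans did not pass. Gpc1, an abundant glypican of many cell types, was higher in every Bptf KD tumour (11.38 to 11.52) than in any control (11.03 to 11.29), with a difference of 0.32 (interval 0.03 to 0.62; limma adjusted p = 0.337). Gpc4 differed by 0.04 (interval -0.43 to 0.51), and it kept its sign in 10 of 16 alternatives. Gpc6 gave -0.12 on a probe set just above the dim level and -0.45 on a dim one.

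Syndecans cross the membrane and pair heparan sulfate with a short cytoplasmic tail. Sdc3 had the smallest p among them, with 9.91, 9.27 and 9.38 in controls and 10.03, 10.03 and 10.01 in Bptf KD tumours. The Bptf KD tumours were nearly equal, and control 1 came close to them. The difference was 0.50 (interval 0.07 to 0.94; limma adjusted p = 0.316), whereas the other 2 Sdc3 probe sets, also above the dim level, gave 0.09 and -0.0067. Sdc2 differed by 0.36 (interval -0.28 to 1.00), with 0.31 to 0.50 on its 3 probe sets, and its lowest tumour was the one labelled control 2 (11.06). Sdc4 differed by 0.10 and Sdc1, the main syndecan of epithelia, by -0.02, with 0.14 to 0.15 on its other 3 probe sets.

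The matrix cores perlecan (Hspg2) and agrin (Agrn) did not pass either. Hspg2, a core of basement membranes, spanned 9.11 to 9.28 in the control group and 8.86 to 9.13 in the other, a difference of -0.19 (interval -0.49 to 0.11). Its other probe set gave -0.40 with groups apart. Agrn had the largest SD of the list among controls (0.83): 9.78, 8.19 and 9.37 in controls and 9.36, 9.11 and 9.81 in Bptf KD tumours. The tumour labelled control 2 lay far below the rest. The difference of 0.31 (interval -0.66 to 1.29) became -0.15 without it.

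**Figure D3:**
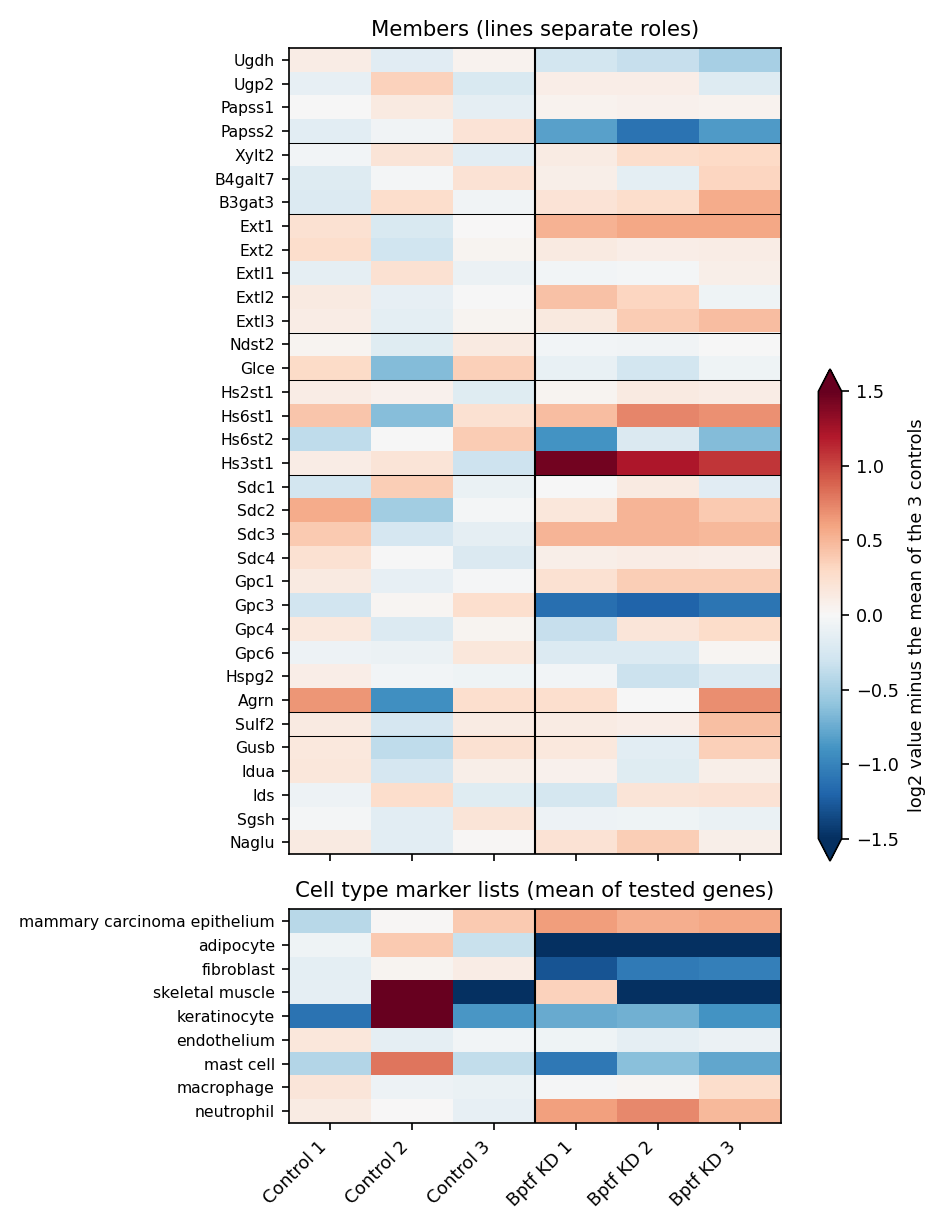
Log2 value in each of the 6 tumours minus the mean of the 3 controls, for the 34 heparan sulfate genes tested (upper panel) and for the means of 9 cell type marker lists (lower panel); colours saturate at 1.5 in either direction. Hs3st1 is red and Gpc3 and Papss2 blue in all 3 Bptf KD tumours, beside lower adipocyte and fibroblast lists, and the muscle and keratinocyte lists stand out in the tumour labelled control 2.

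Heparan sulfate is trimmed outside the cell and broken down in lysosomes. Sulf2, an endosulfatase that removes 6-O-sulfate from finished chains, gave 9.33, 8.95 and 9.32 in controls and 9.32, 9.30 and 9.65 in Bptf KD tumours. The groups overlapped, with a difference of 0.22 (interval -0.17 to 0.62; limma adjusted p = 0.642). Of the 5 lysosomal enzymes, which remove sugars and sulfates one by one, none passed, and the groups overlapped in all 5. Naglu, an N-acetylglucosaminidase, read 8.67, 8.38 and 8.56 in controls and 8.75, 8.91 and 8.63 in Bptf KD tumours (difference 0.23, interval -0.10 to 0.55). Sgsh, the sulfamidase, read 7.13, 7.0 and 7.35 in controls and 7.08, 7.10 and 7.06 in Bptf KD tumours (difference -0.08, interval -0.39 to 0.23). Gusb, the beta-glucuronidase, differed by 0.12, the sulfatase Ids by 0.05 and the iduronidase Idua by -0.01. The 5 differences lay between -0.08 and 0.23.

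Of 23 further genes of transport, linker processing, cores and breakdown, 11 were tested and 0 passed in limma, with 0 at an unadjusted p under 0.05 and a median difference of 0.05. Bpnt2, which clears the by-product of sulfation, differed by -0.26, and the nucleotide sugar transporter Slc35d1 by -0.27, both with groups apart (limma adjusted p = 0.387 and 0.417). Uxs1, which makes the xylose donor of the linker, differed by 0.46, and the linker kinase Fam20b by 0.15. Chondroitin and dermatan sulfate share the linker: 8 of 16 genes were tested, and again limma called 0, with 0 at an unadjusted p under 0.05 and a median of 0.05. Csgalnact1, which commits the linker to chondroitin, differed by -0.66 and its paralog Csgalnact2 by -0.33. The chondroitin sulfotransferases Chst15 and Chst12 differed by -0.43 and 0.28.

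Among proteins that bind heparan sulfate, 17 of 25 were tested, and 2 fell: lipoprotein lipase Lpl (-3.27, limma adjusted p = 0.00986), which is also on the adipocyte list, and the chemokine Cxcl12 (-2.70, limma adjusted p = 0.0185). Pleiotrophin, Ptn, differed by -2.31 and the growth factor Fgf7 by -0.64, with groups apart and adjusted p of 0.104 and 0.140 from limma. At an unadjusted p under 0.05 in limma, 7 of the 17 were lower and 2 higher, beside 5.82% and 7.66% of all genes. The list median was -0.28. Stromal cells make these 4 proteins in many tissues. Adipocyte and fibroblast markers were lower in the same tumours, and their part in these values was not tested.

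**Figure D4:**
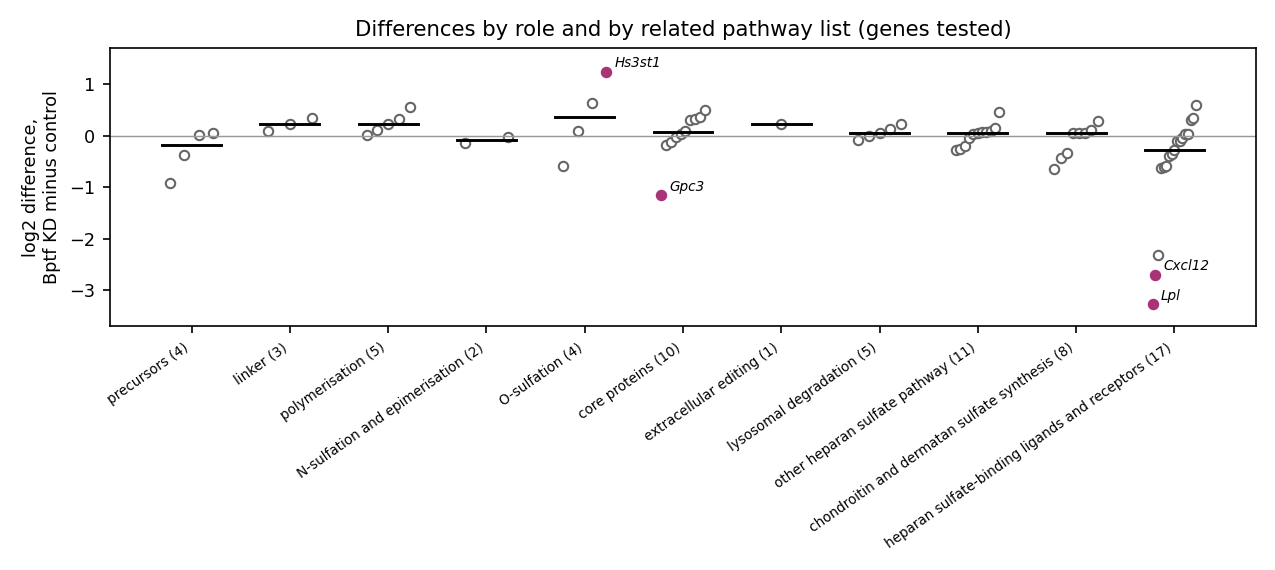
Log2 difference, Bptf KD minus control, of each tested gene by role of the heparan sulfate list (8 columns) and for 3 related lists, with the number tested in brackets and the median as a bar. Filled, named points passed an adjusted p of 0.05: Hs3st1 (1.24) above 0 and Gpc3 (-1.15), Cxcl12 (-2.70) and Lpl (-3.27) below.

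Mast cells are a further source of heparin, the most sulfated form of the chain. All 6 tested mast cell markers had negative differences, 0 passed in limma, and at an unadjusted p under 0.05 2 were lower. Their mean was 7.19, 8.44 and 7.27 in controls 1, 2 and 3 and 6.56, 7.01 and 6.86 in Bptf KD tumours. The part of mast cells in the values of the list was not tested. Epithelial markers had differences of the same sign as Hs3st1 in 7 of 8 genes, with 0 called (limma; 3 higher at an unadjusted p under 0.05). Neutrophil markers also had higher list means in Bptf KD tumours (9.80 to 10.03, against 9.18 to 9.43 in controls), with 4 of 5 differences positive, a median of 0.67 and 0 called (limma; at an unadjusted p under 0.05, 1 was higher and 1 lower). Beside these sign counts, 59.6% of differences over all genes were positive. Macrophage markers had 6 of 8 positive differences (median 0.21) and endothelial markers 6 of 10 (median 0.07). Of these, Tek alone was called, and it was lower (-1.3, limma adjusted p = 0.00986). At an unadjusted p under 0.05 in limma, 2 macrophage markers were higher and 1 lower, and 1 endothelial marker was higher and 2 lower. The part of any of these lists in the rise of Hs3st1 was not tested.

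**Figure D5:**
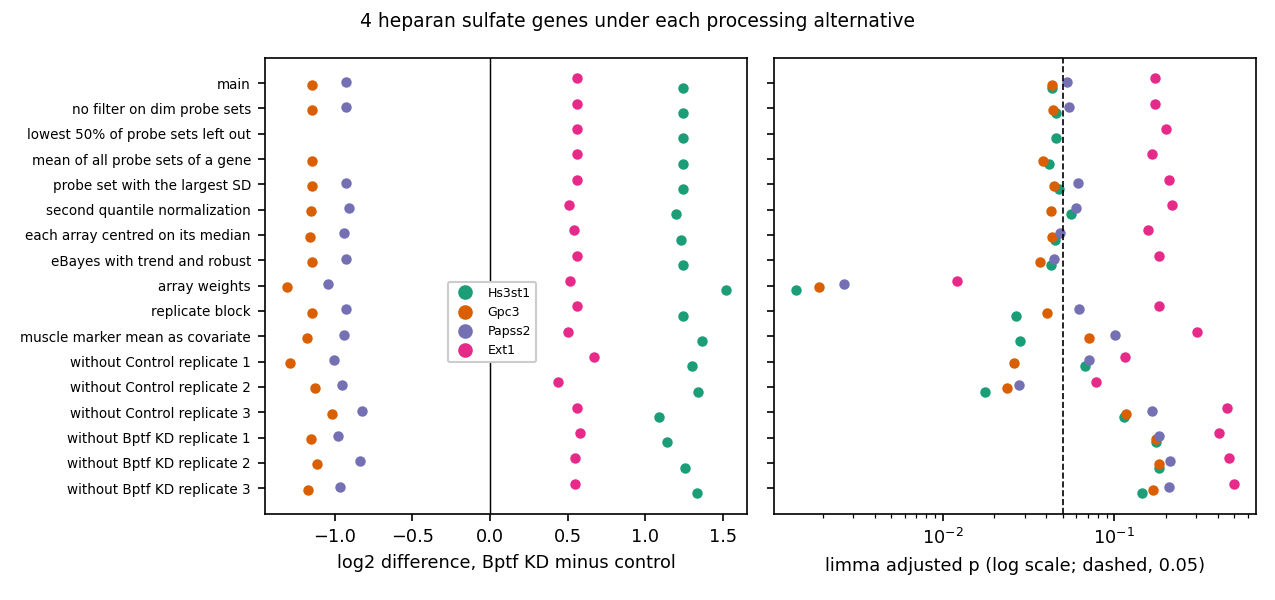
Log2 difference (left) and limma adjusted p on a log axis (right) of Hs3st1, Gpc3, Papss2 and Ext1 in the reported fit (main) and under 16 alternatives, the last 6 of which leave out 1 tumour; a gap marks a gene that the filter removed. The differences keep their sign throughout, while the adjusted p of Hs3st1, from 0.0014 to 0.182, and of Gpc3, from 0.0019 to 0.182, lies on both sides of 0.05.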

How the data were processed

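RNA of 6 tumours (500 ng each) was read on Affymetrix arrays. The deposited values are log2 expression values, 1 column per tumour, made with RMA per the submitters' processing notes, with no version given; the base of the logarithm was taken as 2 from their range. Probe sets were named from GEO's platform annotation and RefSeq (GRCm38.p6). For each of 12393 genes the probe set with the highest mean stood for the gene, and probe sets in the dimmest 30% were left out. Bptf KD was compared with control over 9248 genes by limma 3.58.1 in R 4.3.3 (lmFit, eBayes, no covariate), with Benjamini-Hochberg adjustment over all genes and a threshold of 0.05. The fit was first run on simulated data, with the noise of each gene equal across arrays. That run thus does not cover a tumour that stands apart, as the one labelled control 2 did. Single means were also compared by an exact two-sided permutation test. The number of arrays limits the precision, and RMA gives no detection call. Members, lists and tests were chosen with earlier results of these data known. The text names every member, with values by tumour for those called and the 2 of each role with the smallest p, and up to 4 genes of each other list. Hs6st1, Gpc1, Agrn, Hspg2 and Hs3st3a1 were given more detail after their values were seen. Alternatives covered the filter, the choice of probe set, scaling, variance settings, weights per array, a block for the replicate number, a muscle covariate and leaving out each tumour.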

Additional observations from a re-analysis of the deposited data

How the results depend on the processing

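Over all genes the count called went from 75 to 42 with the dimmest 50% left out, 1676 with array weights (for which limma warned of incomplete convergence) and 49 with the muscle covariate, and ran from 0 (without Bptf KD 3, where 742 genes had an unadjusted p under 0.05) to 412 (without the tumour labelled control 2). On the heparan sulfate list the 2 calls became 1, Hs3st1, with the dimmest 50% left out, a filter that removed Gpc3. Hs3st1 was also the 1 call with the muscle covariate, where Gpc3 was tested and did not pass. With a second quantile normalisation the 1 call was Gpc3, since Hs3st1 had a limma adjusted p of 0.0562. With array weights 9 of 34 were called, beside 1676 of 9248 over all genes. The 9 were Ext1, Glce, Gpc3, Hs3st1, Hs6st2, Papss2, Sdc3, Ugdh and Xylt2. The weights were 0.757, 0.15 and 4.00 for controls 1, 2 and 3, and 0.952 to 1.98 in Bptf KD tumours. The control side of the weighted fit thus rested mostly on control 3. Leaving out single tumours gave 0 to 3 calls on the list. Without control 3 or without any 1 Bptf KD tumour it was 0 of 34, with 4 to 6 at an unadjusted p under 0.05 in limma. Over all genes those fits called 10 without control 3, and 2, 6 and 0 without Bptf KD tumours 1, 2 and 3. At an unadjusted p under 0.05 in limma they had 799, 903, 803 and 742 of 9248 genes. The replicate block gave 2 calls on the list and 107 over all genes. Deviations of same-numbered tumours from their group means correlated at 0.0054, 0.28 and 0.37 for numbers 1, 2 and 3. In these deviations 4 of 6 tumours correlated best with their own number. The deviations are taken within groups of 3, so these correlations depend on one another and cannot decide whether the numbers mark pairs. The reported fit has no pairing. Median centring and the trend and robust settings each gave 3 on the list, with Papss2 added, beside 84 and 79 over all genes. Of the 34 genes, 19 kept their sign in each alternative whose filter kept them (13 to 16 of 16). The other 15 turned sign in at least 1, and the cause was not tested; Glce alone of these was called anywhere, with array weights (-0.45, limma adjusted p = 0.0438). Leaving out tumours gave ranges of -0.11 to 0.18 for Ugp2, -0.0083 to 0.13 for Papss1, -0.030 to 0.21 for B4galt7, -0.038 to 0.25 for Ext2, -0.063 to 0.12 for Extl1, -0.12 to 0.033 for Ndst2, -0.48 to 0.030 for Glce, -0.15 to 0.17 for Sdc1, -0.0083 to 0.21 for Sdc4, -0.082 to 0.23 for Gpc4, -0.15 to 0.65 for Agrn, -0.072 to 0.26 for Gusb, -0.14 to 0.077 for Idua, -0.047 to 0.20 for Ids and -0.16 to 0.015 for Sgsh. Second quantile normalisation gave -0.0017 for Ugp2 and -0.015 for Gpc4, median centring -0.010 for Ugp2 and -0.0067 for Extl1, and array weights -0.049 for B4galt7, 0.089 for Sdc1, -0.10 for Gpc4 and -0.055 for Gusb. The muscle covariate gave 0.063 for Sdc1 and -0.077 for Gpc4. Sdc1 was 0.105 with the mean of its probe sets and 0.14 with the probe set of largest SD.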

Other observations

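The tumour labelled control 2 was the lowest of the 6 in 16 of the 34 heparan sulfate genes tested (47.1%), beside 32.1% of all genes, and the highest in 5 (14.7%, beside 27.5%). Genes for which it was the lowest included Glce, Hs6st1, Sdc2, Agrn and Gusb. Its skeletal muscle marker mean was 11.8, against 6.67 and 9.04 in the other controls and 6.46 to 9.52 in Bptf KD tumours. The part of muscle in the lower values was not tested.

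The Bptf KD tumours varied less among themselves than the controls: the median SD of a heparan sulfate gene was 0.14 in Bptf KD tumours and 0.22 in controls, beside 0.14 and 0.24 over all genes. Those controls include the tumour labelled control 2, which correlated with controls 1 and 3 at 0.934 and 0.939 across genes. Controls 1 and 3 correlated at 0.986, and pairs of Bptf KD tumours at 0.984 to 0.988. The part of the tumour labelled control 2 in the larger SD was not tested. Among the genes read from several probe sets above the dim level, 8 of 12 had differences of one sign on all of them, and Ugp2, Sdc1, Sdc3 and Ids did not.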
